A study of Mus musculus with 24 samples.

Results

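Retinal progenitor and eye field factors are transcription factors that specify the eye-forming territory of the anterior neural plate or keep retinal progenitors dividing and multipotent. Here 8 such genes were followed in mouse retina organoids (MROs): Pax6, Rax, Six3, Six6, Lhx2, Sox2, Sox9 and Nr2e1. They were chosen by gene symbol, and all 8 were found among 126602 counted features, of which 46603 were annotated genes and the remainder assembled loci. All 8 also passed the filter on low counts (10 or more normalized counts on average over all organoids) and belong to the 46949 features tested. Read counts had been made from total RNA of 24 whole MROs sampled on 4 days of culture (D20, D22, D25, D30), with 6 separate organoids a day. Total counts per organoid lay between 13634846 and 19477108.

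All organoids were grown from wildtype E14Tg2a mouse embryonic stem cells by the trisection protocol, in which the eye-forming epithelium of an aggregate is cut into pieces that each grow into 1 organoid. The genotype was labelled Control in every group, only water as solvent was given, and the labelled difference between the groups was the day of sampling. The sample titles of D22, D25 and D30 also carry the word Ctrl, which those of D20 do not. The synthetic retinoid EC23 and serum belong to the medium that all groups shared. The 24 organoids came from 1 cell line and 1 independent experiment, so each p-value measures the spread between individual organoids of that experiment. Whole organoids were lysed, and in such bulk RNA fewer cells of a type and less RNA per cell cannot be told apart.

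During eye formation Rax, Pax6, Six3, Six6 and Lhx2 are active together in the eye field and later in the optic vesicle and the neural retina. Several of them are retained by particular mature cells: Pax6 in amacrine, ganglion and horizontal cells, and Lhx2, Sox2, Sox9 and Rax in Müller glia, the radial glia of the retina. Sox2 is an HMG-box factor of neural stem cells, Sox9 its relative in progenitors and glia, and Nr2e1 (TLX) an orphan nuclear receptor of neural and retinal progenitors. Photoreceptors, bipolar cells and Müller glia are the last cell types that retinal progenitors produce.

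The sequence just before the transcription start is shown for 4 members, picked by their values in these data. Pax6, Six3 and Six6 were lower at D30 than at D20, whereas for Sox2 this difference did not pass the test given below. RefSeq promoter sequences (GRCm38.p6) matched 6 of the 8 members, and 5 windows held none of the gene's own annotated exon bases. The 250 bases upstream of the start were searched on both strands for CCAAT, a common proximal promoter element that reads ATTGG when it lies on the other strand. The further motifs searched were TAATTA, a core bound by many homeodomain factors, CATTGT, a core of Sox factors, and the TATA box motif TATAAA. Matches that share bases were counted separately, and capitals mark CCAAT in either orientation, the only motif with a match.
Pax6 (chr2:105668646-105668895, plus strand): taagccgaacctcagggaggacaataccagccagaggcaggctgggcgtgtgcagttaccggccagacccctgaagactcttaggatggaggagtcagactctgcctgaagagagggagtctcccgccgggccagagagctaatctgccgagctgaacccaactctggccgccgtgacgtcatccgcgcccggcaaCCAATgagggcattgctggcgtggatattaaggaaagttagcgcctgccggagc
Six3 (chr17:85620584-85620833, plus strand): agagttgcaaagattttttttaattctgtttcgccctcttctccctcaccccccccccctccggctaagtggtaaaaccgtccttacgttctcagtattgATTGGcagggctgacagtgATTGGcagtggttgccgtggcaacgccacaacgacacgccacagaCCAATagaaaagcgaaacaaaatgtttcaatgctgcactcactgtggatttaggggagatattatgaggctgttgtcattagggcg
Six6 (chr12:72939632-72939881, plus strand): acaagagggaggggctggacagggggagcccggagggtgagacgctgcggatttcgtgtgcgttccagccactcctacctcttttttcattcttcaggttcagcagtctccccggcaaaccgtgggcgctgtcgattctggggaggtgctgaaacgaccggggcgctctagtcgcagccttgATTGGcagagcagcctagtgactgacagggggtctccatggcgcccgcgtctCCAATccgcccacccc
Sox2 (chr3:34649745-34649994, plus strand): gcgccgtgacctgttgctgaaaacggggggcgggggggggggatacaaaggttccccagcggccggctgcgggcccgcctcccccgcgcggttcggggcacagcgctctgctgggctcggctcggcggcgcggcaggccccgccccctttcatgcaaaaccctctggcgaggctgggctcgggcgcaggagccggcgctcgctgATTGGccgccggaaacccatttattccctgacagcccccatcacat

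The Six3 window held 3 CCAAT matches and the Six6 window 2, while Pax6 and Sox2 had 1 each. Of 32851 mouse promoter windows of the same length, 33.8% held at least 1 match, 10.1% at least 2 and 2.79% at least 3. The Lhx2 window (chr2:38339031-38339280, plus strand) held none and is not printed, although Lhx2 did not pass from D20 to D30 either. The 4 printed windows are therefore the ones among the 5 that have a CCAAT match. The homeodomain core occurs in 4.84% of all windows, the Sox core in 10.7% and the TATA box motif in 12.4%, and none of these 3 had a match in the 5 windows. A match or its absence describes only these letters in this stretch. The Six3 window lies within the annotated Six3 span, because GENCODE M21 has transcripts starting further upstream. The Sox2 window ends at 34649994, whereas the annotated Sox2 gene starts further downstream, at 34650405. On the other strand, the Six3 window overlaps exons of Gm28528 and the Six6 window exons of 4930447C04Rik.

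By the day of their lowest mean the 8 genes fell into 2 groups. Pax6, Rax, Six3 and Six6 had their lowest mean at D30, whereas Lhx2, Sox2, Sox9 and Nr2e1 had theirs at D25. Between D20 and D30, 5 members fell past the threshold (an adjusted p under 0.01, edgeR quasi-likelihood test with Benjamini-Hochberg adjustment over all 46949 features): Six3, Six6, Pax6, Rax and Sox9. None rose past it, and none did so from D25 to D30 either, where Sox2 came nearest (adjusted p = 0.011). The second group is therefore set apart by its means alone. From D20 to D30, 13.0% of all features tested were called lower and 26.8% in either direction, and among the 16253 annotated genes tested 16.7% were called lower. In a joint test of the 4 timepoints 7 members passed, Lhx2 being the exception (adjusted p = 0.041), against 27.2% of all features and 43.9% of the annotated genes tested.

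**Figure D1:**
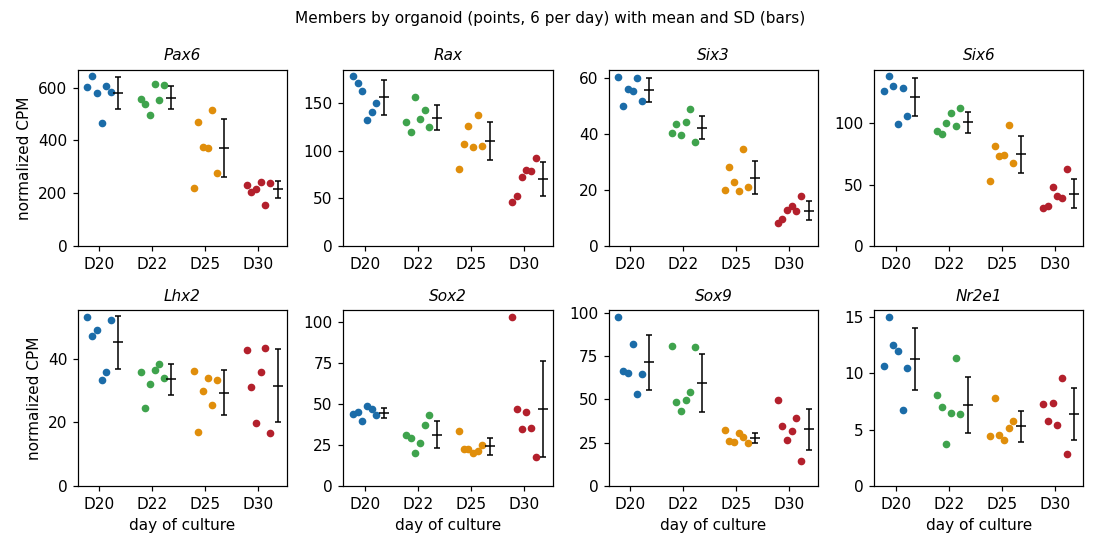
Normalized CPM (y axis, linear from 0) of the 8 members by day of culture (x axis), with each of 6 organoids per day as a point and the mean with its SD as a black bar. Pax6, Rax, Six3 and Six6 stepped down to D30, whereas the D30 organoids spread widely for Sox2, from 17.4 to 103, and for Lhx2, Sox9 and Nr2e1.

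Levels are given as normalized CPM, that is, counts scaled to the same library total in every organoid after correction by the trimmed mean of M values (TMM). Because long transcripts collect more reads, levels of different genes were compared only per kilobase of exon. On that scale, at D20, Pax6 stood highest with 49.6 ± 5.15 CPM per kilobase (SD, n = 6 MROs), and Nr2e1 lowest with 3.03 ± 0.740. Six6 with 30.3 ± 3.81 and Rax with 26.7 ± 3.09 overlapped within their SD, Sox2 with 21.7 ± 1.51 and Sox9 with 17.3 ± 3.81 followed, and Lhx2 and Six3 could not be ordered (10.3 ± 1.93 and 10.2 ± 0.793). At D30 Sox2 with 22.9 ± 14.3 and Pax6 with 18.3 ± 2.73 CPM per kilobase did not differ beyond the spread of Sox2. Rax with 12.0 ± 2.98 and Six6 with 10.6 ± 2.94 came next, then Sox9 with 7.88 ± 2.84 and Lhx2 with 7.19 ± 2.59. Six3, level with Lhx2 at D20, stood at 2.31 ± 0.627 beside Nr2e1 at 1.72 ± 0.613. Dividing by the longest transcript in place of all exon bases raised Pax6 to 131 ± 13.6 and Rax to 54.6 ± 6.33 at D20, so that Rax then preceded Six6. At D30 the same scale put Pax6 first with 48.3 ± 7.21, above Sox2 by more than the SD of Sox2, and Rax with 24.6 ± 6.10 beside Sox2, and Lhx2 with 11.1 ± 4.01 beside Six6.

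Pax6 (ENSMUSG00000027168, chr2:105668900-105697364 on the plus strand, GRCm38) encodes the paired-box and homeodomain factor known as the master regulator of eye development. At D20 its normalized CPM ranged from 466 to 643 around a median of 592, and at D22 from 497 to 613 around 555. At D25 the 6 organoids spread from 218 to 514 with a median of 374. At D30 they lay between 156 and 242 with a median of 223. Every D30 organoid was below every D20 and D22 organoid, while the ranges of D25 and D30 overlapped. The change was −0.05 ± 0.14 on the log2 scale (SE) in the first interval, D20 to D22 (adjusted p = 0.91). It was −0.60 ± 0.14 in the second, D22 to D25 (adjusted p = 0.0043), and −0.79 ± 0.14 in the third, D25 to D30 (adjusted p = 0.00029). Over the whole interval Pax6 fell to 0.369 of its D20 level (log2 change −1.44 ± 0.14, adjusted p = 1.5e-09). The D22 to D25 call was lost when D22 organoid 4 or 6, or D25 organoid 1, 4 or 6, was left out, with an adjusted p of at most 0.016 and a log2 change of −0.48 without D25 organoid 1.

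Rax, the paired-type homeodomain factor without which no optic vesicle forms, showed the shallowest course of the 4. Its normalized CPM ranged from 132 to 178 at D20 with a median of 157, and from 120 to 157 at D22 with a median of 132. The D25 organoids lay between 81.2 and 138 with a median of 106, and those at D30 between 46.4 and 92.4 with a median of 75.3. Neighbouring days overlapped, but no D30 organoid reached the lowest D20 value. Changes of −0.21 ± 0.13 and −0.29 ± 0.13 (log2, SE) in the first and second interval did not pass (adjusted p = 0.43 and 0.17), whereas the change of −0.65 ± 0.13 from D25 to D30 did (adjusted p = 0.0020). By D30 Rax stood at 0.451 of its D20 level (log2 change −1.15 ± 0.14, adjusted p = 5.0e-08). The antisense gene Raxos1 covers 27.4% of the Rax exon bases. Raxos1 had a mean of 11.7 ± 1.33 normalized CPM at D20 and 7.74 ± 2.13 at D30 (SD, n = 6; log2 change −0.60 ± 0.18, adjusted p = 0.0095). How strand was treated in counting is not given in the sources used here.

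Six3 (ENSMUSG00000038805, chr17:85613608-85629302, plus strand), a homeodomain factor that represses Wnt signalling in the anterior brain and eye field, fell furthest. Its normalized CPM lay between 50.0 and 60.6 at D20 with a median of 55.9. At D22 the range was 37.3 to 49.1 (median 41.9), at D25 it was 19.5 to 34.6 (median 21.9) and at D30 it was 8.28 to 18.0 (median 12.5). The organoids of each day lay below all organoids of the preceding day, a separation that no other member showed in all 3 intervals. Features whose 6 later organoids all lay below the 6 earlier ones made up 0.965% of those tested in the first interval, 2.29% in the second and 2.15% in the third. The log2 changes were −0.39 ± 0.15 (adjusted p = 0.13), −0.80 ± 0.15 (adjusted p = 0.00055) and −0.95 ± 0.15 (adjusted p = 8.6e-05), and at D30 Six3 was at 0.225 of its D20 level (−2.15 ± 0.15, adjusted p = 2.2e-12).

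Six6 (ENSMUSG00000021099, chr12:72939892-72944899, plus strand), the close relative of Six3 that sustains proliferation in the retina and pituitary, took the same direction. Between 99.7 and 138 normalized CPM were found at D20 with a median of 128, and between 90.9 and 113 at D22 with a median of 99.0. On D25 the lowest value was 53.2, the median 73.7 and the highest 98.9, and on D30 they were 31.1, 39.9 and 63.1. The D30 organoids lay below all those of D20 and D22, but overlapped with D25. The first interval gave −0.27 ± 0.14 (adjusted p = 0.31), the second −0.43 ± 0.14 (adjusted p = 0.043) and the third −0.81 ± 0.14 (adjusted p = 0.00026). The D30 level was 0.350 of that at D20 (−1.52 ± 0.14, adjusted p = 7.2e-10).

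Like Raxos1, genes on the opposite strand at the Six3 and Six6 loci fell from D20 to D30. Six3os1, which shares 1.9% of the Six3 exon bases on the other strand, went from 108 ± 7.26 normalized CPM at D20 to 56.4 ± 12.7 at D30 (SD, n = 6; log2 change −0.94 ± 0.12, adjusted p = 1.7e-07). 4930447C04Rik (Six6os1), a protein-coding gene that shares 4.8% of the Six6 exon bases, went from 107 ± 13.8 to 50.2 ± 11.9 (log2 change −1.10 ± 0.14, adjusted p = 1.2e-07). The shared stretches are a small part of either member. Pax6os1, which overlaps the Pax6 span on the other strand without shared exon bases, had 3.57 ± 0.985 at D20 and 2.88 ± 1.03 at D30 and did not pass (log2 change −0.31 ± 0.26, adjusted p = 0.36). It did not pass in the third interval either, when Pax6 fell (log2 change 0.47 ± 0.26, adjusted p = 0.36). Near Pax6, its long noncoding neighbour Paupar fell from 2.64 ± 0.717 to 1.09 ± 0.518 (log2 change −1.27 ± 0.38, adjusted p = 0.0092), while Elp4, the ubiquitous gene that overlaps distant Pax6 enhancers, went from 20.4 ± 2.30 to 27.7 ± 3.98 (log2 change 0.44 ± 0.12, adjusted p = 0.0051).

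Lhx2 (ENSMUSG00000000247, chr2:38339281-38369733, plus strand), a LIM homeodomain factor required for the optic cup and later for Müller glia, was the member that did not pass the joint test. The D20 organoids held between 33.5 and 53.2 normalized CPM around a median of 48.1, and those of D22 between 24.6 and 38.4 around 34.9. At D25 values of 17.1 to 36.3 had a median of 31.5, and at D30 values of 16.6 to 43.4 had one of 33.4. All 4 ranges overlapped. Its log2 changes of −0.43 ± 0.20, −0.19 ± 0.20 and 0.11 ± 0.20 in the 3 intervals and −0.52 ± 0.20 over the whole span did not pass (adjusted p = 0.23, 0.61, 0.86 and 0.037). The D30 against D20 difference did pass when annotated genes alone were fitted (−0.63, adjusted p = 0.0056).

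Sox2 (ENSMUSG00000074637, chr3:34650405-34652461, plus strand) was nearly uniform among D20 organoids, between 39.5 and 48.6 normalized CPM (median 44.6). It ranged from 20.2 to 43.2 at D22 (median 30.3) and from 20.0 to 33.6 at D25 (median 22.5). At D30 the values ran from 17.4 to 103 with a median of 40.2, and the SD rose from 6.96% of the mean at D20 to 62.5%. Organoid 1 held the highest and organoid 6 the lowest D30 value, and the D30 range enclosed every value of the other days. The D25 to D30 change of 0.97 ± 0.24 (log2) just missed the threshold (adjusted p = 0.011). It passed with DESeq2 (1.02, adjusted p = 0.0071) and without D30 organoid 6 (1.14, adjusted p = 0.00046), and was 0.57 (adjusted p = 0.072) without D30 organoid 1. D30 against D20 gave 0.08 ± 0.24 (adjusted p = 0.83), with −0.31 (adjusted p = 0.20) without D30 organoid 1.

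Sox2 sits inside an intron of its long noncoding host Sox2ot, with no shared exon bases. Sox2ot stood at 15.3 ± 3.63 normalized CPM on D20 and 18.1 ± 13.2 on D30 (SD, n = 6), with lower means of 10.8 ± 4.70 on D22 and 10.7 ± 2.67 on D25, so that its D30 organoids also spread most. Its change from D20 to D30 did not pass (log2 change 0.25 ± 0.32, adjusted p = 0.59).

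Sox9 (ENSMUSG00000000567, chr11:112782224-112787760, plus strand) fell in a single step. Normalized CPM lay between 52.9 and 97.5 at D20 (median 65.7) and between 43.5 and 80.9 at D22 (median 51.9). At D25 all 6 organoids fell within 24.9 to 32.1 (median 26.9), and at D30 they spread from 14.6 to 49.4 (median 32.9). Thus every D25 organoid was below every D22 organoid, and D30 organoids lay on both sides of those of D25. The D22 to D25 change was −1.10 ± 0.20 (log2, adjusted p = 0.00038), whereas the intervals before and after gave −0.26 ± 0.19 and 0.23 ± 0.20 (adjusted p = 0.52 and 0.61). D30 organoids had 0.457 of the D20 level (−1.13 ± 0.20, adjusted p = 2.7e-05).

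Nr2e1 (ENSMUSG00000019803, chr10:42561963-42583632, minus strand) was the member with the fewest reads, 51 to 224 counts per organoid. The D20 organoids spanned 6.76 to 15.0 normalized CPM (median 11.3) and those of D22 3.71 to 11.4 (median 6.74). At D25 the span was 4.04 to 7.81 around a median of 4.82, and at D30 it was 2.83 to 9.60 around 6.53. The groups overlapped in each comparison. D30 against D20 gave −0.82 ± 0.25 on the log2 scale and missed the threshold narrowly (adjusted p = 0.0101), passing when annotated genes alone were fitted (−0.92, adjusted p = 0.0027). No single interval passed, with −0.65 ± 0.25, −0.44 ± 0.25 and 0.27 ± 0.25 (adjusted p = 0.14, 0.29 and 0.66).

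**Figure D2:**
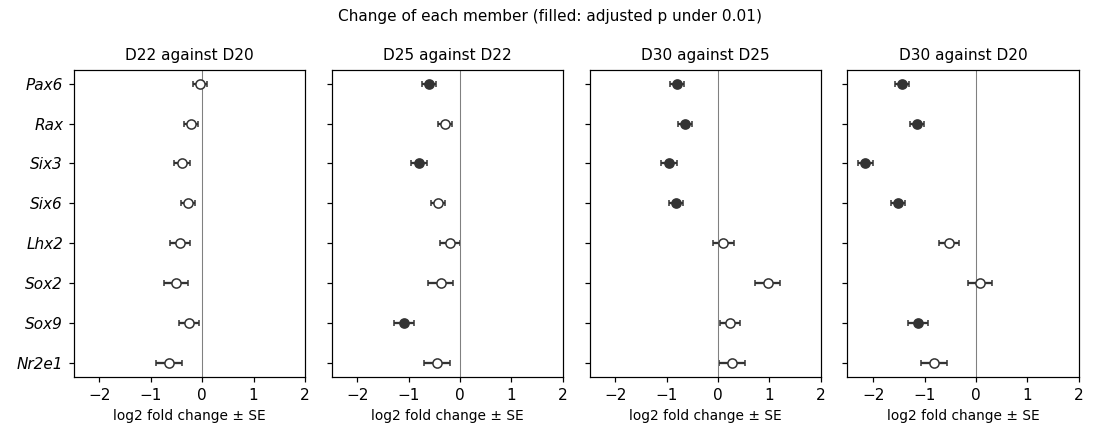
Log2 fold change with its standard error (x axis) of each member (y axis) in 4 comparisons of days, with filled points for an adjusted p under 0.01. All 8 points lie below 0 in the first and second panels, whereas in the third Pax6, Rax, Six3 and Six6 lie below 0 and Sox2, Sox9, Lhx2 and Nr2e1 above it.

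Counted by interval, none of the 8 members passed between D20 and D22, where 1.9% of all features did in either direction, 0.285% downwards, and 4 members (Six3, Nr2e1, Lhx2 and Sox2) had an unadjusted p under 0.05 in edgeR. That threshold was passed by 17.8% of all features and by 24.9% of the annotated genes tested. DESeq2 called none either. Between D22 and D25 Pax6, Six3 and Sox9 fell, 3 of 8 against 2.19% of all features called lower and 5.28% in either direction (2.92% and 10.2% of annotated genes). Between D25 and D30 Pax6, Rax, Six3 and Six6 fell, 4 of 8 against 1.75% called lower and 3.51% in either direction (2.83% and 7.38% of annotated genes). The median log2 change of the members was −0.33, −0.44 and −0.27 in the 3 intervals and −1.14 over the whole span. Comparisons that share a day share its organoids, so these counts are not independent. From D20 to D30, all 6 later organoids lay below all 6 earlier ones for 5 members, against 9.34% of all features.

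Ratios of 2 members within an organoid do not depend on how libraries are scaled. All 28 pairs were tested with a two-sided exact permutation test over the 6 and 6 organoids (924 regroupings, smallest possible p = 0.0022), adjusted over the 28 pairs, an analysis added after the values had been seen. Between D20 and D30, 11 ratios differed at an adjusted p under 0.05. Within the group that fell to D30, the log2 ratio of Six3 to Six6 counts went from −1.12 ± 0.21 to −1.76 ± 0.16 (SD, n = 6; exact p = 0.0022, adjusted p = 0.012). The ratio of Rax to Six6 rose from 0.36 ± 0.14 to 0.73 ± 0.20 (exact p = 0.0022, adjusted p = 0.012), and that of Rax to Six3 from 1.48 ± 0.21 to 2.49 ± 0.10 with the same p-values. Thus Six3 lost the most and Rax the least of these 3. No difference was detected for Pax6 to Six6, with 2.26 ± 0.11 at D20 and 2.36 ± 0.39 at D30 (exact p = 0.54, adjusted p = 0.56).

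The SoxB1 and SoxE members also shifted against each other. The log2 ratio of Sox2 to Sox9 counts rose from −0.65 ± 0.31 at D20 to 0.42 ± 0.39 at D30 (SD, n = 6; exact p = 0.0022, adjusted p = 0.012). The ratio of Six3 to Sox2 moved furthest, from 0.32 ± 0.14 to −1.75 ± 1.20 (exact p = 0.0022, adjusted p = 0.012). Lhx2 gained on Sox9, from −0.66 ± 0.37 to −0.04 ± 0.25 (exact p = 0.0065, adjusted p = 0.023). In the 3 shorter intervals no ratio passed, the smallest adjusted p being 0.12 in the first, 0.061 in the second and 0.076 in the third. The opposite signs of the 2 groups of members between D25 and D30 were therefore not separated by this test.

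**Figure D3:**
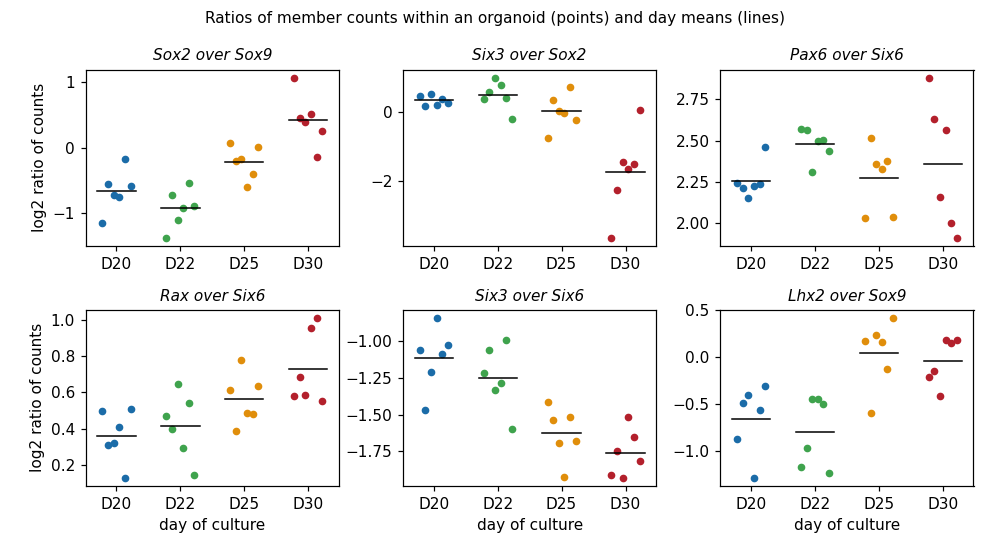
Log2 ratio of the counts of 2 members within each organoid (y axis) by day of culture (x axis), with organoids as points and day means as lines, for 6 pairs chosen after their values were seen. Sox2 over Sox9 and Rax over Six6 are higher at D30 than at D20, Six3 over Six6 and Six3 over Sox2 are lower, and Pax6 over Six6 spreads around the same level.

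Organoids of 1 age were compared next, by the deviation of each log2 level from its day mean. Among 28 pairs of members, 11 had a Pearson r with an adjusted permutation p under 0.05 (100000 permutations within days, two-sided), 6 positive and 5 negative, but 1 pair passed by Spearman rho. That pair was Pax6 with Six6 (r = 0.65, adjusted p = 0.012, and rho = 0.69, adjusted p = 0.025, n = 24), for which r was 0.45 without D25 organoids 1 and 5. Rax and Six6 had r = 0.79 (adjusted p = 0.0035) and rho = 0.62 (adjusted p = 0.050), and r = 0.70 without D30 organoids 1 and 6. Rax and Sox2 ran opposite, with r = −0.75 (adjusted p = 0.0035), rho = −0.59 (adjusted p = 0.054) and r = −0.56 without the same organoids. Sox2 and Sox9 had r = 0.75 (adjusted p = 0.012) and rho = 0.54 (adjusted p = 0.062), with r = 0.45 after that omission. All values of an organoid share its library and scaling.

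At D30, organoid 6 carried the highest Rax, Six3 and Six6 and the lowest Lhx2, Sox2, Sox9 and Nr2e1, and organoid 1 the lowest Rax, Six3 and Six6 and the highest Sox2 and Sox9. Within D30 alone r was 0.97 for Rax with Six3 and −0.87 for Rax with Sox2, whereas within D20 it was −0.08 and −0.57 (n = 6 each).

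**Figure D4:**
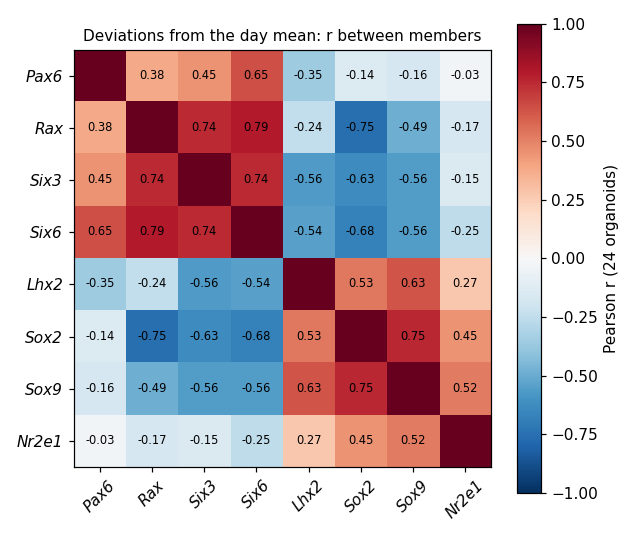
Pearson r between members (colour and number) over 24 organoids, after the mean of its day was taken from each log2 level, with the members in the same order on both axes. Rax, Six3 and Six6 form a positive block and Lhx2, Sox2 and Sox9 another, with negative values between the blocks.

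The same organoids differed in markers of other cells. A list of 10 cerebral cortex genes (among them Emx1, Emx2, Tbr1, Neurod6, Eomes, Bcl11b, Dlx1 and Dlx2, of which retinal cells also express several) summed to 361 normalized CPM in D30 organoid 1 and 13.2 in D30 organoid 6. On D20 the sum lay between 32.3 and 246 and on D22 between 15.3 and 41.1. Its extremes were 14.4 and 422 on D25 and 13.2 and 361 on D30, and no gene of the list was at 0 throughout a day. Of 56 relations between a member and a marker list, 9 passed by r and 2 by rho. Those 2 were Six6 with the cortex list (r = −0.78, adjusted p = 0.0098, and rho = −0.71, adjusted p = 0.023) and Sox2 with it (r = 0.70, adjusted p = 0.0098, and rho = 0.66, adjusted p = 0.023). They were r = −0.63 without D30 organoid 6 and D25 organoid 1, and r = 0.54 without D30 organoids 1 and 6. By r alone, a list of photoreceptor genes ran opposite to Sox9 (r = −0.61, adjusted p = 0.036), Lhx2 (−0.50, 0.040) and Sox2 (−0.49, 0.036). Lhx2 (0.69, adjusted p = 0.031) and Sox9 (0.61, 0.040) passed by r with the cortex list. So did Lhx2 with cell cycle genes (0.59, 0.040) and Sox9 with progenitor genes (0.59, 0.040). Pax6, Lhx2, Sox2, Sox9 and Nr2e1 are also genes of cortical progenitors, and how far such cells enter the members' values was not tested. With the cortex list Pax6 had r = −0.49 and Nr2e1 r = 0.30, and neither passed (adjusted permutation p = 0.13 and 0.35).

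**Figure D5:**
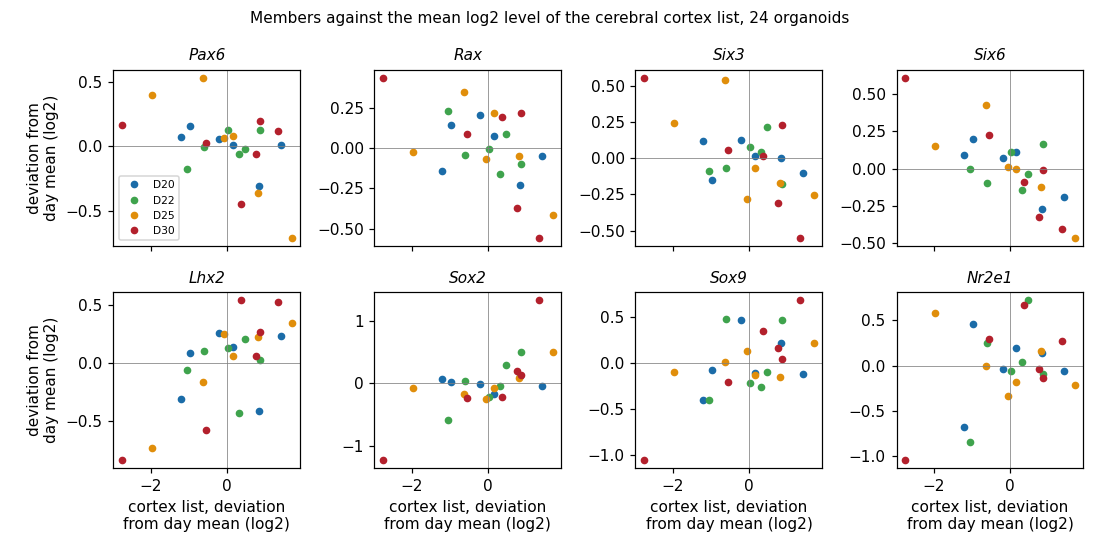
Deviation of each member's log2 level from its day mean (y axis) against that of the mean log2 level of 10 cerebral cortex genes (x axis), with 1 point per organoid coloured by day. Six6 slopes down (r = −0.78), Sox2 slopes up (r = 0.70), and D30 organoid 6 lies alone at the left of each panel.

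When the 7 organoids with more than 200 normalized CPM on the cortex list were left out, which keeps 2 at D30, the falls of Pax6, Rax, Six3, Six6 and Sox9 from D20 to D30 were still called, and Lhx2 was called as well (−1.26, adjusted p = 0.00021). Sox2 then gave −0.79 (adjusted p = 0.015). From D22 to D25 the call of Pax6 was lost (−0.38, adjusted p = 0.022), while Six3 (−0.69, adjusted p = 0.0033) and Sox9 (−1.12, adjusted p = 0.00075) were still called. From D25 to D30, 1 member was still called, Pax6 (−0.93, adjusted p = 0.00024). Rax gave −0.52 (adjusted p = 0.073), Six3 −0.78 (adjusted p = 0.031), Six6 −0.56 (adjusted p = 0.054) and Sox2 0.27 (adjusted p = 0.82). Ttr, a transthyretin gene of pigment epithelium and choroid plexus, exceeded 2000 normalized CPM in D30 organoids 2 and 6. Without them the same 5 members were called from D20 to D30, and Sox2 rose from D25 to D30 (1.18, adjusted p = 0.00082).

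Other progenitor genes fell as well, though not in the same intervals throughout. Of 17 tested genes of retinal progenitors and neurogenesis, 8 fell in the first interval, when no member was called, 11 in the second, 5 in the third and 14 over the whole span, with none rising. Their median log2 change from D20 to D30 was −2.62, against −1.14 for the members and 0.10 for all annotated genes tested. Foxn4, a factor for amacrine and horizontal fate, fell from 28.8 ± 8.55 to 0.487 ± 0.167 normalized CPM (SD, n = 6; log2 change −5.87 ± 0.36, adjusted p = 5.5e-14). Of 13 cell cycle genes 3 fell in the first interval, none in the second (median log2 change 0.03), when 3 members fell, and 1 in the third. Over the whole span 11 fell, among them Mki67 from 430 ± 47.2 to 127 ± 25.7 (log2 change −1.75 ± 0.25, adjusted p = 1.1e-06).

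Of 11 tested patterning factors of the optic vesicle and cup, 5 fell from D20 to D30 and none rose. Over that span 13.0% of all features tested and 16.7% of the annotated genes were called lower. Otx2 went from 451 ± 56.6 to 158 ± 27.1 normalized CPM (SD, n = 6; log2 change −1.52 ± 0.11, adjusted p = 1.3e-12) and Tbx3 from 33.8 ± 5.21 to 8.21 ± 1.84 (log2 change −2.04 ± 0.18, adjusted p = 1.4e-10). Neither passed from D20 to D22, and both fell in each later interval, as Six3 did. From D25 to D30 Prox1 rose from 39.8 ± 7.68 to 60.4 ± 7.08 (log2 change 0.60 ± 0.12, adjusted p = 0.0012). Over the whole span it was not called. The paper uses PROX1 as a marker of bipolar and amacrine cells.

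Markers of the cells that retain some members took different directions. Of 14 Müller glia genes, 4 rose in the second interval, 10 in the third and 12 over the whole span, against 3.08%, 1.76% and 13.9% of all features tested, while 1.62% of features rose in the first. Slc1a3, the glial glutamate transporter, rose from 64.6 ± 18.3 normalized CPM at D20 to 544 ± 176 at D30 (SD, n = 6; log2 change 3.07 ± 0.20, adjusted p = 4.3e-13). Aqp4, the water channel of glial endfeet, rose from 16.1 ± 6.77 to 267 ± 235 (log2 change 4.05 ± 0.46, adjusted p = 2.3e-08). The sum over the list at D30 was highest in organoid 1 (6518) and lowest in organoid 6 (2481), the organoids with the highest and lowest Sox2 and Sox9. Between the mean log2 level of the list and Sox2, r was 0.82 within D30 but −0.34 within D22 and −0.60 within D25, and for Sox9 it was 0.97, −0.68 and −0.26. Over the 24 organoids neither relation passed, with r = 0.55 for Sox2 (adjusted permutation p = 0.28) and 0.54 for Sox9 (adjusted permutation p = 0.18), and r was −0.26 and −0.02 without D30 organoids 1 and 6. Dkk3 fell, from 649 ± 96.4 to 292 ± 18.3 (log2 change −1.15 ± 0.13, adjusted p = 1.6e-08).

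Among 14 amacrine genes, none fell and 2 rose in the first interval, 1 fell and none rose in the second, and 5 fell and 1 rose in the third. Over the whole span 3 fell and 3 rose, with a median log2 change of 0.05. In the third interval Barhl2 fell from 11.0 ± 4.02 to 3.73 ± 1.48 (SD, n = 6; log2 change −1.56 ± 0.23, adjusted p = 3.4e-05), whereas Calb1, which encodes calbindin, rose from 3.77 ± 0.902 to 14.6 ± 5.79 (log2 change 1.95 ± 0.33, adjusted p = 0.00020). Of 8 horizontal and ganglion cell genes 7 fell from D20 to D30. Of 11 photoreceptor genes 10 rose over that span, including Rcvrn from 2.89 ± 1.50 to 484 ± 116 (log2 change 7.38 ± 0.34, adjusted p = 2.7e-16), and of 8 bipolar genes 6 rose. Pluripotency genes summed to at most 14.1 normalized CPM in any organoid.

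The genes most like each member were sought among annotated genes with at least 100 normalized counts on average, by the root mean square difference of centred log2 levels over the 24 organoids. In 2 cases a member was among the 3 genes nearest to another member. Six6 was the third nearest to Pax6 (difference 0.23) and Rax the second nearest to Six6 (0.21), neither of them mutually. The gene nearest to Rax was Six3os1 (0.14), followed by Amer2 (0.17) and Meis1 (0.20), against a deviation of Rax from its own mean of 0.50. Nearest to Pax6 were Dusp16 (0.21) and Trib1 (0.22), nearest to Six6 was Rorb (0.20), and nearest to Six3 were Arid5b (0.27), Tbx3 (0.29) and Dusp16 (0.29). The other 4 members had more distant neighbours in relation to their own deviation: Khdrbs3 for Lhx2 (0.23 against 0.44), Setd7 for Sox2 (0.28 against 0.57), Npc2 for Sox9 (0.28 against 0.68) and Traf6 for Nr2e1 (0.36 against 0.58). When the 4 day means were used in place of the 24 organoids, Ptprf, the third nearest to Lhx2, became its nearest, and none of the other genes stayed among the nearest 3 of its member.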

How the data were processed

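Total RNA of single MROs was depleted of ribosomal RNA, made into strand-specific libraries and sequenced. The authors deposited read counts per feature, made with HISAT2, StringTie 1.3.3 and HTSeq 0.6.1 on GRCm38 (mm10), per the labels and the methods of the study. The strand setting of counting is not given in the sources used here. From the deposited counts, features averaging 10 or more normalized counts were tested in edgeR 4.0.16 (quasi-likelihood F test, TMM) in 1 fit of all 24 organoids, with an adjusted p threshold of 0.01. Groups were taken from the labelled day. Alternatives were DESeq2 1.42.0, its size factors, other filters, annotated genes alone, a replicate block, the compared days alone and each organoid left out. 3 counts, taken as the detection floor, equal 0.154 to 0.220 CPM, and such floors cover counting error only. Within a day, counts of the 60 organoid pairs differed by more than sampling noise (chi-square over degrees of freedom of 6.00 to 38.2), so none was counted as a duplicate. The 8 members were all described, beside annotated genes within 10 kb, the 3 genes most like each member and, per marker list and comparison, genes with the lowest p among those called or that define the list, with a few further list genes chosen for their known role. Some listed genes are not reported here by name. The members and the 13 lists were chosen with earlier results of these data known. Exon lengths and overlaps come from GENCODE M21. Of the 75-base windows in member transcripts, 1385 of Rax, 128 of Six3 and 118 of Six6 lie antisense in another gene. The test was checked on simulated counts.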

Additional observations from a re-analysis of the deposited data

Results flagged for a closer look

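Among 32 groups of 6 organoids (8 members at 4 timepoints), 3 held an organoid whose gap to its nearest neighbour exceeded Dixon's 95% critical value for 6 values, and chance alone flags about 1 group in 20. D20 organoid 4 had the lowest Pax6, 466 normalized CPM, with the next organoid at 580. D25 organoid 1 had the highest Sox2 of its day, 33.6 normalized CPM, with the next at 25.1, and was also the D25 organoid with the lowest Pax6 (218) and the highest sum over the cerebral cortex list (422). D30 organoid 1 had the highest Sox2 of all organoids, 103.3 normalized CPM, with the next D30 organoid at 47.0 and the lowest at 17.4.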

How the results depend on the processing

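The replicate numbers did not pair the organoids, since deviations from the day mean correlated on average by 0.013 within a number and −0.0025 between numbers. With the replicate block 823, 2221, 1492 and 12254 features were called in D22 against D20, D25 against D22, D30 against D25 and D30 against D20, against 894, 2478, 1647 and 12592 without it, and Nr2e1 passed from D20 to D30 (adjusted p = 0.0099).

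DESeq2 called 1605 features from D20 to D22. Fitting annotated genes alone gave 7311 calls from D20 to D30 and 7623 in the joint test, which had 12767, and fewer features were tested. Leaving out 1 organoid gave 472 to 1324 calls from D20 to D22, with under 600 without D20 organoid 1 (479) and D22 organoids 2 (562) and 3 (472), and 1561 to 2840 from D22 to D25, with the lowest without D22 organoid 1. Without the 7 organoids rich in cortex markers, a choice made after seeing the data, 1336 features were called from D22 to D25, 474 from D25 to D30 (with 1 member), 6944 from D20 to D30 and 7290 in the joint test.

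Signs turned only for values that had not passed. Pax6 from D20 to D22 was 0.0054 with annotated genes alone. Lhx2 from D25 to D30 ranged from −0.0081 to 0.24 over the omissions of 1 organoid and was −0.54 without the 7 organoids, where Sox9 was −0.41 and Nr2e1 −0.074. Sox2 from D20 to D30 was −0.043 with annotated genes alone, −0.029 with the block, −0.79 without the 7 organoids and −0.31 to 0.25 over the omissions. Of 768 member values with 1 organoid left out, 750 kept direction and call, 5 lost a call, 9 gained one and 4 turned. Fitting the compared days alone ended the calls of Pax6 from D22 to D25 (adjusted p = 0.0101) and of Rax from D25 to D30 (adjusted p = 0.017). Nr2e1, with 51 to 224 counts, is the member most limited by depth.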

Other observations

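Of 13 paralogs of the members, 10 were tested, and between D20 and D30 3 rose and 3 fell. Over that span 13.9% of all features tested rose and 13.0% fell. Of the 16253 annotated genes tested, 4078 rose and 2712 fell. Nr2e3, the photoreceptor paralog of Nr2e1, rose from 136 ± 49.3 to 386 ± 104 normalized CPM (SD, n = 6; log2 change 1.50 ± 0.25, edgeR adjusted p = 1.1e-05), with the change placed between D20 and D22 (log2 change 1.57 ± 0.25, adjusted p = 0.00017). Lhx9, the nearest relative of Lhx2, fell from 75.3 ± 23.8 to 12.4 ± 4.07 (log2 change −2.60 ± 0.23, adjusted p = 2.4e-10), whereas Lhx2 itself did not pass. Six4 fell from 6.83 ± 1.59 to 2.73 ± 0.390 and Six5 from 7.60 ± 2.55 to 2.19 ± 1.46 (adjusted p = 3.2e-05 and 2.5e-05). Sox8, a SoxE relative of Sox9, fell from 40.0 ± 3.46 at D20 to 27.3 ± 1.92 at D22 (log2 change −0.55 ± 0.13, adjusted p = 0.0094). Sox10 had a mean of at most 2.47 normalized CPM at any day and was called higher at D30 than at D20 (adjusted p = 0.00026).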
